A study of Rattus norvegicus with 9 samples.

Results

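Ultraconserved regions are stretches of DNA that are identical between the human, mouse and rat genomes. The m6A epitranscriptomic microarray used for rat cortex holds probes for 480 of them, named "uc." with the region's number and a + or - for the strand, and 479 numbers have a probe for each strand. A probe was taken as detected when its immunoprecipitated (IP) or its supernatant (Sup) signal was well above background on at least 3 of the 9 arrays. Members were thus chosen by measured detection flags. By this rule 140 of the 479 regions (29.2%) were detected on both strands, and their 280 probes are described here. Another 173 regions were detected on 1 strand, 83 on + and 90 on -, and 166 on neither.

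The arrays came from the ischemic-side cortex of young adult male Sprague Dawley rats, with 1 array per rat and 3 rats in each group. Control rats had the same neck surgery without the filament, and the labels call this tissue normal. Model rats had cerebral ischemia-reperfusion injury from a filament that closed the middle cerebral artery for a time and was then withdrawn, and their cortex was taken on day 7. Rats of the third group had the same injury and received Buyang Huanwu Decoction (BHD), a herbal formula of traditional Chinese medicine, with cortex also taken on day 7. Filament occlusion gives an infarct whose size differs from rat to rat, and a piece of cortex holds many cell types, so that fewer cells of a type and less RNA per cell cannot be told apart in these signals.

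Many ultraconserved regions are transcribed, from either strand or from both, and the transcripts are counted among the long non-coding RNAs. Some lie inside exons or introns of genes for RNA-binding proteins and transcription factors, and others lie far from genes. N6-methyladenosine (m6A) is the most common internal modification of messenger RNA and is also found on long non-coding RNAs, where METTL3 and METTL14 place it and FTO and ALKBH5 can remove it. On each array, RNA bound by the m6A antibody (IP) was labelled with Cy5 and the RNA left behind (Sup) with Cy3. The log2 of their ratio, log2(IP/Sup), was used as the relative m6A level of a probe. Dyes were not swapped, so a dye effect of a probe remains in its ratio but drops out of a comparison between groups. Neither the labels nor the methods say which genome the + and - refer to, and whether the labelling kept strands apart was not tested.

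For uc.77-, which the study followed by PCR after immunoprecipitation, the primers give the sequence at both ends of the amplified piece. They are shown because this is the only member whose sequence was at hand. A further reason is that it passed both thresholds once in each group comparison below, though in different measures. These were log2(IP/Sup) for model against control and IP for BHD against model.

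uc.77- forward primer: ttaaaggaagtctgactgctgc

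uc.77- reverse primer: gttctcgccacactctgtttct

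Of the 280 probes, 192 were detected on all 9 arrays, and in 64 pairs both strands were. The + strand was detected on more arrays in 40 pairs, the - strand in 36, and no probe was detected on arrays of 1 group only. The longest run of consecutive numbers went from uc.471 to uc.479, 9 regions in all. The numbers follow the order of the regions along the human chromosomes. Just inside the rule lay 10 pairs whose rarer strand was detected on exactly 3 arrays, among them uc.86, uc.135 and uc.186, where the other strand was detected on 9. Just outside lay 13 regions whose rarer strand was detected on exactly 2 arrays, among them uc.132 and uc.155, whose - probes were detected on 9 arrays, and uc.167, whose + probe was detected on 7. The study also followed uc.440-, whose probe was detected on 9 arrays. Its + partner was detected on 1, so uc.440 is not among the 140.

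**Figure D1:**
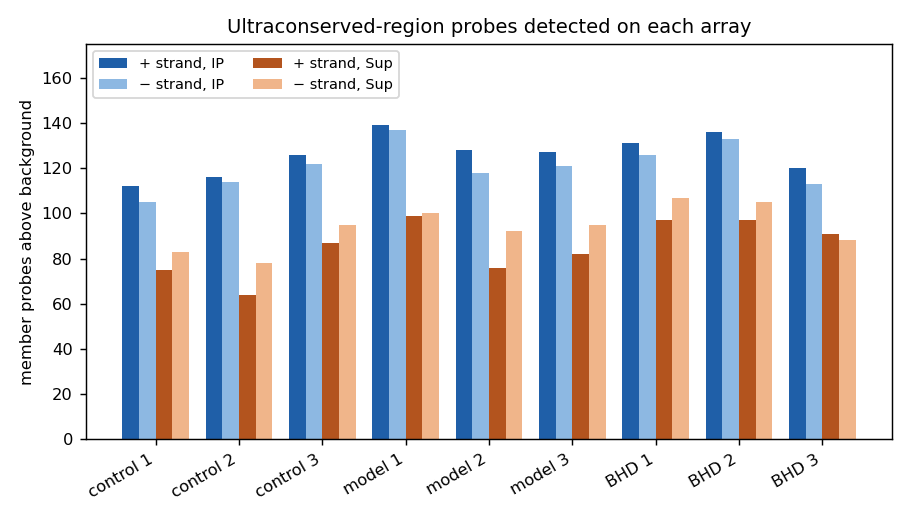
Number of the 140 + probes and 140 - probes with a signal well above background on each array, separately for the IP and the Sup channel. IP counts lie above Sup counts for both strands on every array, and model replicate 1 has the highest IP counts.

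More member probes were well above background in IP than in Sup on every array, and so were more of all transcript probes, 70.9% to 82.7% in IP and 58.4% to 72.7% in Sup. For + probes, between 112 (control replicate 1) and 139 (model replicate 1) of 140 were well above background in IP, against 64 (control replicate 2) to 99 (model replicate 1) in Sup. For - probes the ranges were 105 to 137 in IP and 78 to 107 in Sup. Over the 280 probes, 47 were well above background in Sup on no array and 2 in IP on no array. For such a probe the ratio is set by the background of a channel. For 127 probes, 57 of them + and 70 -, IP and Sup alike were above background on each of the 9 arrays, and 31 pairs had both probes in this state; these are called well-detected pairs, a set chosen after the data were seen. Detection on an array was part of the rule, so these counts are a description.

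Across the whole array, 72.4% to 83.1% of 41186 transcript probes were well above background in a channel, with the fewest on control replicate 1 and the most on model replicate 1. Arrays correlated between 0.79 and 0.977 in log2(IP/Sup). Of 25 cell type markers, Map2 and Dlg4, a dendritic and a postsynaptic protein of neurons, could be matched to probes, and both were detected on all 9 arrays. A slide here means the arrays that share a scan date in the scanner's headers, since no slide label was used. Slide 1 held all control arrays and model replicate 1. Slide 2 held the other model arrays with BHD replicates 1 and 2, while slide 3 held only BHD replicate 3. A value within a slide below therefore compares, on slide 1, model replicate 1 with the controls, and, on slide 2, the BHD arrays with the model arrays there.

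In control cortex the 2 strands of a region had little relation in their relative m6A level. Over 140 pairs, the control means of log2(IP/Sup) on + and - had a Pearson r of 0.14 and a Spearman rho of 0.30. The points are different probes read on the same arrays, and many are dim in Sup. Over the 31 well-detected pairs r was 0.17 and rho 0.26. Medians were near 0 on both strands, 0.11 for + and 0.07 for -, and 95 + probes and 96 - probes lay above 0. Loess within arrays centres the ratios, so 0 marks a typical ratio of the array and not equal amounts in IP and Sup. IP and Sup signals of the strands were also little related, with r of 0.17 and rho of 0.12 in IP, and r of 0.03 and rho of -0.02 in Sup. These levels belong to different probes with their own binding and dye effects and are set side by side as a description, with no test.

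**Figure D2:**
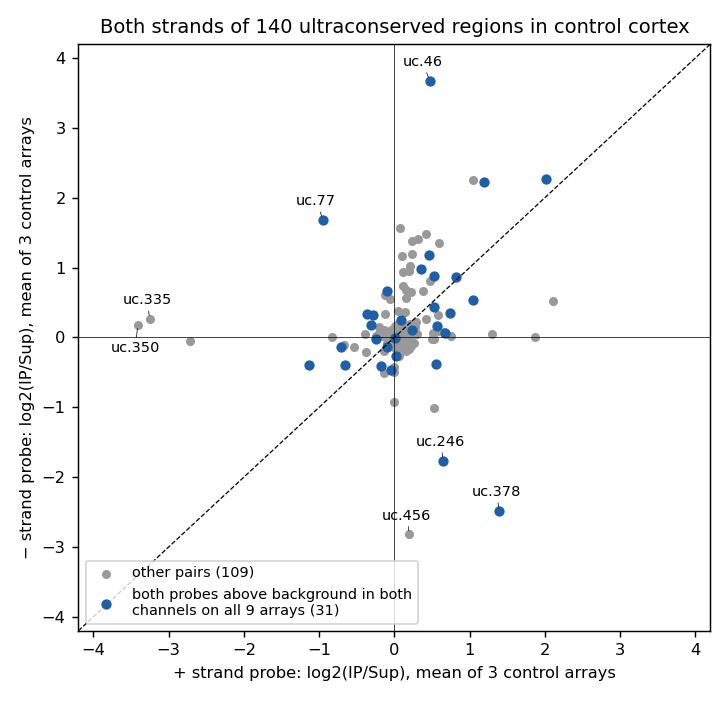
Mean log2(IP/Sup) of 3 control arrays for the + probe (x axis) and the - probe (y axis) of each of 140 regions; the dashed line marks equal values and blue points the 31 well-detected pairs. Most pairs lie near 0 on both axes. A few lie far out along 1 axis, such as uc.46 and uc.335, and uc.378 lies far above 0 on + and far below 0 on -.

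The strand difference, log2(IP/Sup) of + minus that of -, kept its sign on every array with both values in 61 pairs. In 24 of these + was higher and in 37 - was higher, and 79 pairs showed both signs. Of the 140 pairs 72 sat within 0.25 of 0, while the mean difference was past 1 in 7 pairs and below -1 in 10. The median absolute difference over pairs was 0.232, and the median SD between arrays of a group was 0.182. Over the 31 well-detected pairs the median absolute difference was 0.474, with 6 pairs always higher on +, 10 always higher on -, and 10 whose control means lay on opposite sides of 0.

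At the + end stood uc.378, uc.456 and uc.246. For uc.378 the mean difference over 9 arrays was 3.50, with a range from 2.39 (BHD replicate 3) to 4.04. Its + probe had a control mean of 1.39 ± 0.14 (SD, n = 3) and its - probe one of -2.48 ± 0.22. In IP both strands of uc.378 had similar log2 signals, 8.38 ± 0.30 and 8.47 ± 0.15 in controls. They parted in Sup, where + was at 6.99 ± 0.23 and - at 10.95 ± 0.12. The pair was well detected. Next came uc.456 with a mean difference of 2.78 and uc.246 with 2.31. For uc.246 the control means were 0.65 ± 0.16 on + and -1.76 ± 0.07 on -, again in a well-detected pair. For uc.456 they were 0.20 ± 0.14 and -2.82 ± 0.29, and uc.456+ was above background in Sup on 7 arrays.

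At the other end uc.335 had a mean difference of -3.50, uc.350 of -3.16 and uc.46 of -3.12. In the first 2 the + strand was far brighter in Sup than in IP. Controls gave uc.335+ a log2 Sup signal of 14.47 ± 0.31 against 11.22 ± 0.11 in IP, and uc.350+ one of 10.45 ± 0.38 against 7.04 ± 0.22. Their - probes were not well above background in Sup on any array, so the - ratio there has no measured denominator. The region uc.46 differed on the other strand, with uc.46- at 3.68 ± 0.31 in controls, 3.74 ± 0.27 in model and 3.50 ± 0.14 with BHD. Its + partner lay at 0.47 ± 0.03, 0.43 ± 0.24 and 0.66 ± 0.02, and the pair was well detected. The ratio of uc.46- was the highest control mean among the 280 probes.

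The smallest mean differences were those of uc.85, uc.226 and uc.476, at -0.01, 0.01 and -0.01. These were dim probes: uc.85+, uc.226+, uc.476+ and uc.476- were above background in Sup on no array, and the differences on single arrays stayed between -0.16 and 0.17. A contrast with well-detected probes is uc.420, where both strands lay above 0. Its control means were 2.02 ± 0.19 on + and 2.27 ± 0.16 on -. It was chosen for display after its values were seen.

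**Figure D3:**
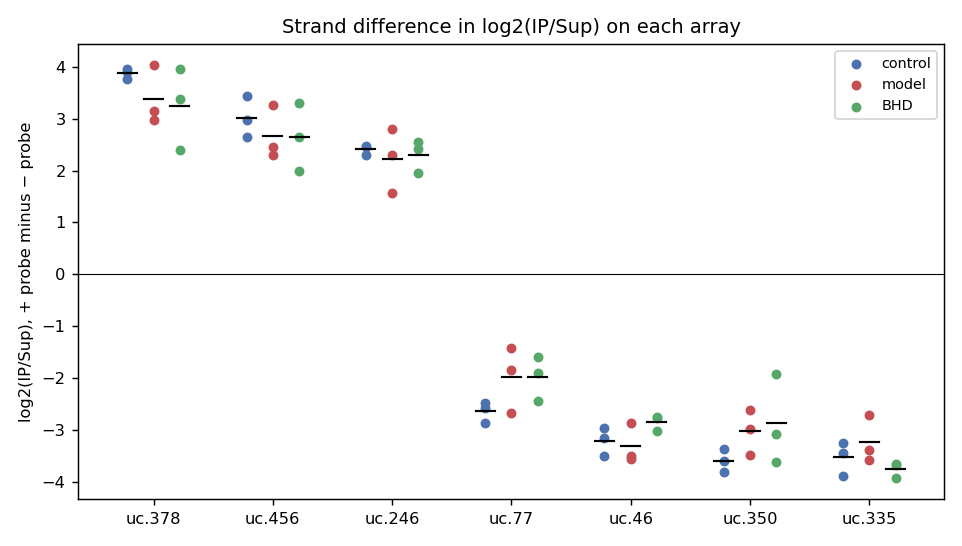
Strand difference in log2(IP/Sup), + probe minus - probe, on each of 9 arrays for the 3 regions at each end and uc.77; points are arrays coloured by group and bars are group means of 3. The sign is the same on all 9 arrays in each of the 7 regions, and the mean of uc.77 lies 0.65 nearer to 0 in model than in control, a difference that did not pass and was -0.042 within slide 1.

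For uc.77 the strands lay on opposite sides of 0 on all 9 arrays. The log2(IP/Sup) of uc.77+ was -0.58, -1.13 and -1.13 on the control arrays, -1.26, -0.88 and -0.91 on the model arrays, and -0.71, -0.62 and -0.30 on the BHD arrays. That of uc.77- was 1.89, 1.44 and 1.72 in control, 1.42, 0.53 and 0.92 in model, and 1.72, 1.28 and 1.30 with BHD. The mean strand difference over 9 arrays was -2.19. The pair was well detected. In controls the log2 IP signals were 8.11 ± 0.15 on + and 8.61 ± 0.15 on -, and the log2 Sup signals 9.06 ± 0.22 and 6.93 ± 0.09.

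Model and control rats were compared to ask how ischemia-reperfusion altered each strand. Few of the members passed the study's thresholds, a fold change of at least 1.5 with an unadjusted p under 0.05, which limma gave from a fit over all transcript probes. In log2(IP/Sup), 1 of the 250 member probes tested passed (uc.77-, lower in model), where 0.613% of all 31640 transcript probes did and 0.382% did as lower. In IP 1 passed (uc.75-, lower) against a background of 1.39%, or 0.698% lower. In Sup 2 passed (uc.350+ and uc.477+, both lower) against 1.24%, or 0.386% lower. With the replicate number as a block, 5 member probes passed in log2(IP/Sup), all lower (2.55% of all probes), 2 in IP (2.03%) and 1 in Sup (1.59%). These counts moved with the setting, as did the share of all probes. For log2(IP/Sup), 13 members passed without model replicate 1 (5.69% of all probes), 2 without control replicate 2 (1.16%) or 3 (1.38%) and 0 without control replicate 1 (0.181%) or model replicate 2 (0.383%), while processed signals gave 14 (5.08%), and 45 (14.5%) passed in the deposited table. In IP 5 passed without control replicate 3 (3.62%), 2 without model replicate 1 (2.08%) or 3 (0.955%) and 0 without control replicate 1 (0.943%). In Sup 5 passed without model replicate 1 (2.18%), 1 without model replicate 3 (0.851%) and 0 without control replicate 1 (0.79%) or model replicate 2 (1.67%). After Benjamini-Hochberg adjustment no member passed in limma, and 0% of all probes did. At an unadjusted p under 0.05 lay 6 member probes in log2(IP/Sup) (3.76% of all probes), 8 in IP (6.29%) and 5 in Sup (7.07%). The median change of the members was -0.03 in log2(IP/Sup), beside 0.01 over all probes. Loess centres the ratios of each array, so the median over all probes cannot show a shift in total m6A. Groups did not overlap for 9.6% of member probes in log2(IP/Sup), 9.2% in IP and 6.8% in Sup, against 8.59%, 12% and 13.3% of all probes.

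The relative m6A level of uc.77- was lower in model than in control by 0.72 on the log2 scale (SE 0.23, limma adjusted p = 0.766). The groups did not overlap, but model replicate 1, at 1.42, lay just under the lowest control, at 1.44. The log2 IP signal of uc.77- was 8.73, 8.45 and 8.67 in control and 8.04, 7.97 and 8.20 in model. Its log2 Sup signal was 6.84, 7.01 and 6.95 in control and 6.63, 7.44 and 7.28 in model, so Sup overlapped between the groups and IP did not. The IP difference of -0.54 (SE 0.10, limma adjusted p = 0.649) was under the fold threshold. Within slide 1 the change of uc.77- in log2(IP/Sup) was -0.27, in IP -0.57 and in Sup -0.30. Without control replicate 1 it was -0.62 and without model replicate 2 -0.51 in log2(IP/Sup), and in both cases it missed a threshold. On the + strand the change was -0.07 (SE 0.18) in log2(IP/Sup), with overlapping groups. Whether the strands of uc.77 changed differently was tested on the strand difference, which differed by 0.65 (SE 0.30, limma adjusted p = 0.934) with overlapping groups and did not pass. Within slide 1 it was -0.042, the opposite direction, and leaving out 1 array gave 0.38 (model replicate 2) to 1.0 (model replicate 1), the last past both thresholds.

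The IP signal of uc.75- was 10.81, 10.76 and 10.24 on the control arrays, 10.08, 9.88 and 9.85 on the model arrays, and 10.34, 10.36 and 10.74 on the BHD arrays. All 3 model arrays lay below every control and BHD array. BHD was higher than model by 0.55, under the fold threshold, and both comparisons share the model arrays. Model was lower than control by 0.67 (SE 0.17, limma adjusted p = 0.685), or by 0.52 within slide 1, and without control replicate 1 or 2 it missed a threshold at -0.56 and -0.58. Its + partner showed the same order at a lower signal, 7.56, 7.61 and 7.36 in control, 7.23, 7.24 and 7.12 in model, and 7.51, 7.50 and 7.66 with BHD. That difference was -0.32 (SE 0.09, limma adjusted p = 0.694). The strand difference of uc.75 in IP differed between the groups by 0.35 (SE 0.11, limma adjusted p = 0.883), under the fold threshold.

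The Sup signal of uc.350+ was 10.89, 10.26 and 10.19 in control, 10.04, 9.26 and 9.90 in model, and 10.40, 9.55 and 8.27 with BHD. Model lay below control on every array by 0.71 in the means (SE 0.27, limma adjusted p = 0.701), by 0.40 within slide 1, by 0.49 without control replicate 1 and by 0.47 without model replicate 2, and none of these last 3 values passed. The change of uc.350+ missed a threshold in 8 of 16 alternatives, and over all 16 it ran from -0.86 to -0.24. The Sup signal of uc.477+ was 13.11, 11.85 and 13.04 in control and 11.48, 11.91 and 11.89 in model. These groups overlapped, since control replicate 2 lay within the model range, and the difference of -0.90 (SE 0.35, limma adjusted p = 0.701) missed a threshold in 10 of 16 alternatives, among them the replicate block (-0.90, SE 0.34) and every array left out but control replicate 2 (-0.68 to -0.98). It was named after its values were seen.

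The strand difference was fitted over all regions with both probes, which removes any constant effect of a probe or dye. Regions beyond the members in this fit have a strand that was not detected by the rule. In model against control it passed both thresholds in log2(IP/Sup) for 1 of 136 member regions (uc.186) and in Sup for 1 (uc.350), where 0.421% of 475 regions did in each. In IP none passed in limma, and the background was also 0.421%. With the replicate block 3 member regions passed in log2(IP/Sup), 1 higher and 2 lower, where 0.842% of all regions did. Without model replicate 1, 11 passed in log2(IP/Sup) (3.21% of all regions) and 5 in Sup (1.92%). With log2(IP/Sup), 2 passed without control replicate 3 (0.427%) or model replicate 2 (0.424%). None passed without control replicate 1 (0%) or 2 (0.211%) or model replicate 3 (0%). In Sup 2 passed without control replicate 2 (1.05%) or 3 (0.855%) and 0 without control replicate 1 (0.427%) or model replicate 2 (0.212%). In IP 2 passed without control replicate 3 (0.641%) and 1 without control replicate 2 (0.632%) or model replicate 1 (0.641%). None passed after adjustment, with 0% of all regions. At an unadjusted p under 0.05 lay 7 member regions in log2(IP/Sup) (2.95% of all regions), 12 in IP (4.42%) and 8 in Sup (5.26%). The log2(IP/Sup) of uc.186- was 0.90, 0.13 and 0.11 in control and 0.17, -0.18 and -0.93 in model, which overlap, and that of uc.186+ was 0.20, 0.00 and -0.04 against 0.13, 0.00 and 0.08. The strand difference was higher in model by 0.71 (SE 0.28, limma adjusted p = 0.934), by 0.29 within slide 1, and by 0.40 without model replicate 3, and it missed a threshold in 8 of 14 alternatives, among them each control array left out. The probe uc.186+ was above background in IP on 3 arrays and in Sup on none, so this value is nearly all the change of the - probe. For uc.350 the strand difference in Sup was -0.81 from control to model (SE 0.29, limma adjusted p = 0.820), with uc.350- above background in Sup on no array. It was -0.47 within slide 1, -0.58 without control replicate 1 and -0.54 without model replicate 2. The call was lost in 8 of 14 alternatives, whose values ran from -0.98 to -0.10 over all 14.

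**Figure D4:**
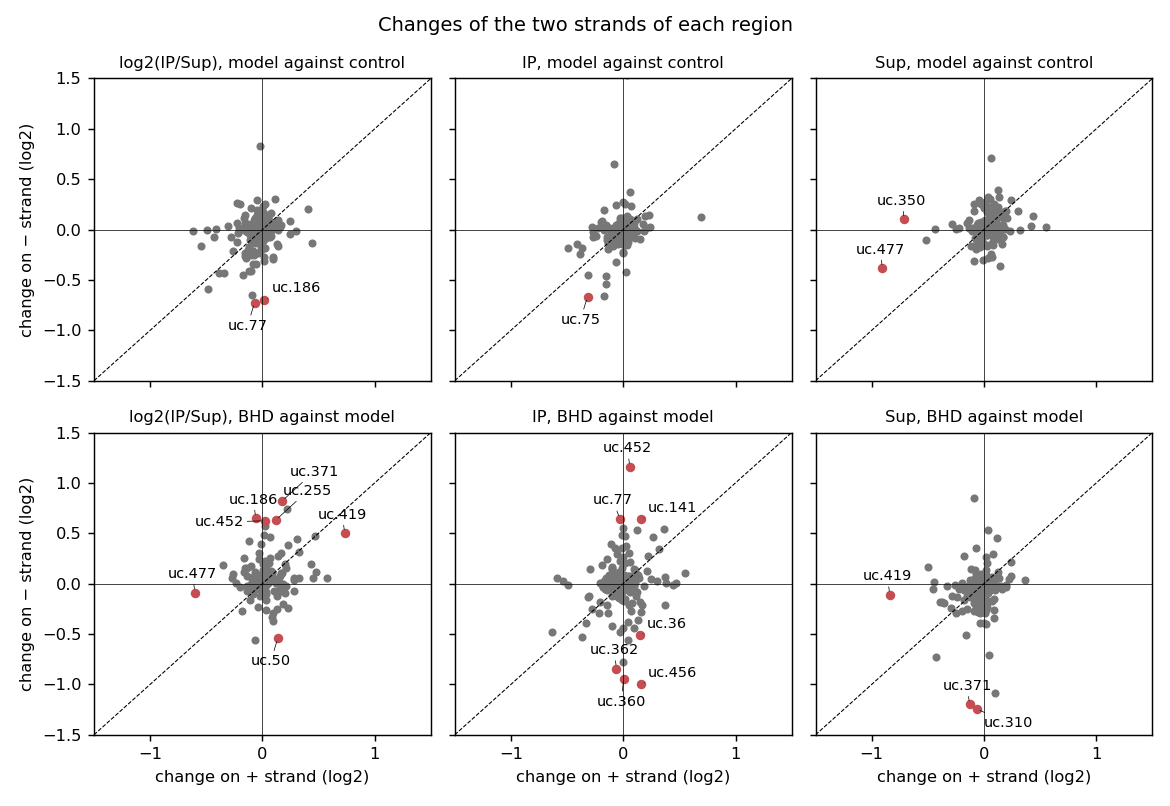
Change on the + strand (x axis) against change on the - strand (y axis) of each region, in log2, for log2(IP/Sup), IP and Sup and for both group comparisons, which share the model arrays. Red points are regions in which a probe or the strand difference passed both thresholds, and dashed lines mark equal change of both strands. Most red points lie along 1 axis, a place that this choice itself favours.

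Across the 140 pairs the changes of the strands were loosely related. In model against control, r between + and - was 0.20 in log2(IP/Sup), 0.30 in IP and 0.22 in Sup. In BHD against model it was 0.19, 0.15 and 0.14. Among the 31 well-detected pairs it was 0.44, 0.56 and 0.44, then 0.35, 0.36 and 0.33. Pairs share their arrays, and these values are a description.

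BHD-treated and untreated model rats were compared to ask which strands differed after treatment. Here 278 member probes were tested in a fit of all 9 arrays, and the model arrays are the same as those set against control above. In log2(IP/Sup) 4 members passed both thresholds, 3 higher and 1 lower with BHD, against 2.6% of 33132 probes, 1.24% higher and 1.36% lower. In IP 6 passed, 3 higher and 3 lower, against 5.2%, 1.48% higher and 3.72% lower. In Sup 3 passed, all lower, against 2.88%, 0.235% higher and 2.65% lower. As shares of the members these are 1.44%, 2.16% and 1.08%, each below the background. All 6 probes that passed in IP were on the - strand, but the strands were alike by other counts in IP. An unadjusted p under 0.05 in limma was found for 11.4% of + and 15.2% of - members. Groups did not overlap for 25.7% of + and 24.6% of - members, and a strand bias was not tested. Without model replicate 1, 13 members passed in log2(IP/Sup) (6.63% of all probes) and 13 in IP (7.62%). In IP 12 passed without BHD replicate 1 (6.54%) and 11 without BHD replicate 2 (7.42%). The ratio gave 2 without BHD replicate 2 (2.2%), and in Sup 10 without BHD replicate 1 (5.66%) and 1 without BHD replicate 3 (1.41%). No member passed after adjustment in limma, where 0% of all probes did in log2(IP/Sup), 0.00302% in IP and 0.00604% in Sup. At an unadjusted p under 0.05 lay 22 members in log2(IP/Sup) (10.8% of all probes), 37 in IP (16.5%) and 12 in Sup (7.87%). Groups did not overlap for 25.2% of members in IP, beside 25.6% of all probes, and for 10.4% in log2(IP/Sup) and 12.2% in Sup, beside 16.8% and 14.8%. Median changes of the members were 0.03, -0.00 and -0.04.

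The - strands of uc.452, uc.456, uc.362, uc.360 and uc.77 had IP signals that differed from model beyond both thresholds and without overlap. The IP signal of uc.452- was 8.18, 7.78 and 6.85 in control, 7.73, 7.69 and 6.73 in model, and 8.21, 8.59 and 8.83 with BHD. It was higher with BHD by 1.16 (SE 0.39, limma adjusted p = 0.251) and by 1.19 within slide 2, where it missed a threshold. Control and model arrays spread over more than 1 log2 unit, and without model replicate 3 (0.83) or BHD replicate 3 (1.01) it missed a threshold. Its + partner stayed between 6.33 and 6.63 on all 9 arrays, with a change of 0.06 (SE 0.08).

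For uc.456- the IP signal was 9.35, 9.75 and 9.57 in control, 9.39, 9.45 and 9.91 in model, and 9.0, 8.95 and 7.80 with BHD. Each BHD array lay below all control and model arrays, with BHD replicate 3 far below the other two. The difference was -1.0 (SE 0.32, limma adjusted p = 0.249), -0.70 within slide 2 and -0.60 without BHD replicate 3, and it passed both thresholds in all 19 alternatives tried. Sup of the same probe was also lowest on that array, at 11.99, 11.64 and 9.44 with BHD and 12.37, 11.73 and 12.23 in model, and its log2(IP/Sup) differed by 0.09 (SE 0.34).

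The IP signal of uc.362- was 7.98, 8.10 and 7.59 in model and 7.27, 7.28 and 6.59 with BHD, a difference of -0.84 (SE 0.23, limma adjusted p = 0.249). Controls, at 7.41, 7.94 and 7.49, lay above every BHD array as well. Within slide 2 the value was -0.57, the only one of 19 alternatives in which it missed a threshold. The IP signal of uc.360- was 10.26, 10.46 and 10.46 in model and 9.90, 9.93 and 8.52 with BHD, a difference of -0.94 (SE 0.35, limma adjusted p = 0.268). It was -0.54 within slide 2 and -0.48 without BHD replicate 3, and it missed a threshold there and without model replicate 2 or 3 (both -0.91).

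The IP signal of uc.77- was 8.04, 7.97 and 8.20 in model and 8.68, 8.53 and 8.94 with BHD. The groups did not overlap, and BHD arrays lay in or above the control range. The difference was 0.64 (SE 0.12, limma adjusted p = 0.249), 0.52 within slide 2 and 0.53 without BHD replicate 3, both of which were under the fold threshold. In log2(IP/Sup) uc.77- was higher by 0.48 (SE 0.23, limma adjusted p = 0.476), with 0.26 (model replicate 2) to 0.70 (model replicate 1) when 1 array was left out, 0.77 within slide 2 and 0.15 with processed signals, and passed both thresholds without model replicate 1 and within slide 2. In the same measure uc.77+ was higher by 0.47 (SE 0.18, limma adjusted p = 0.433). Both were under the fold threshold with all 9 arrays. The Sup signal of uc.77+ was 9.19, 8.98 and 8.74 in model and 8.85, 8.51 and 8.04 with BHD (-0.50, SE 0.21), and its IP signal differed by -0.03 (SE 0.13). A further - strand, uc.141-, passed in IP at 0.64 (SE 0.21, limma adjusted p = 0.25) with overlapping groups, 10.53, 9.84 and 9.86 in model and 10.92, 10.76 and 10.47 with BHD. It was 0.52 without model replicate 2, 0.53 without model replicate 3 and 0.54 without BHD replicate 1, each short of a threshold, and 0.99 within slide 2, and was named after its values were seen.

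**Figure D5:**
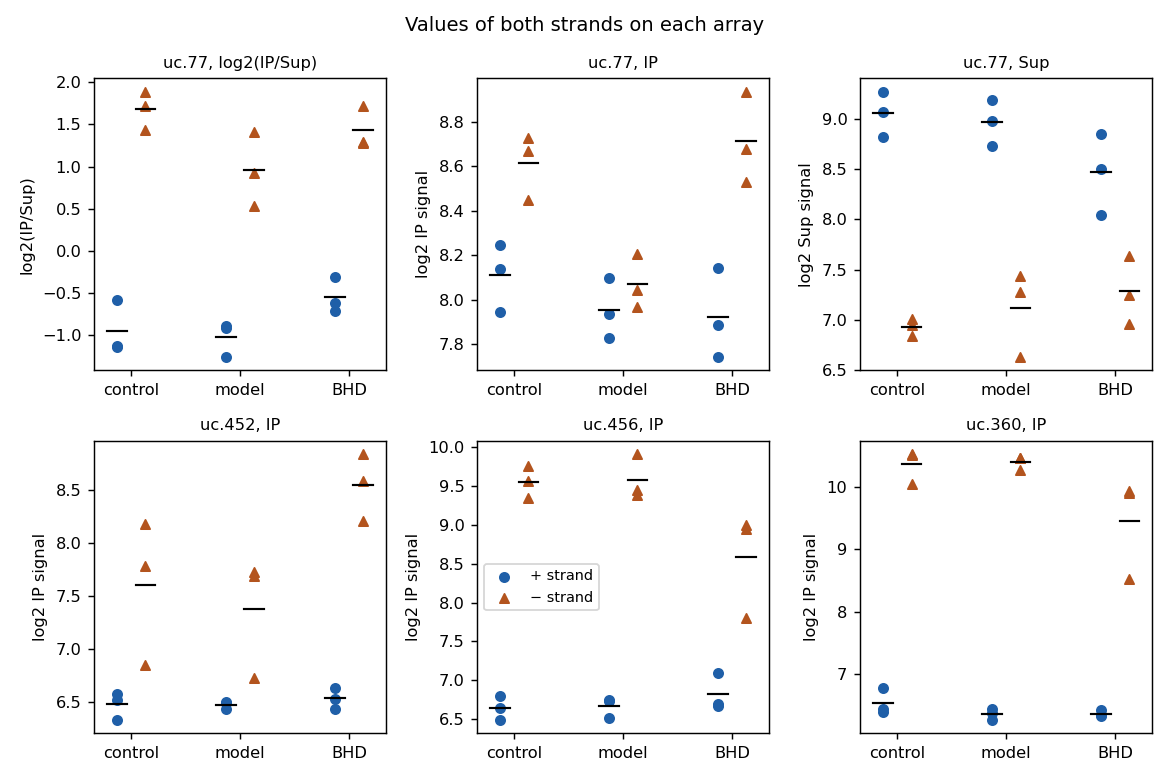
Log2 values of the + probe (circles) and the - probe (triangles) on each array for uc.77 in all 3 measures and for uc.452, uc.456 and uc.360 in IP; bars are means of 3 arrays. In IP, BHD arrays of uc.77- and uc.452- lie above the model arrays and those of uc.456- and uc.360- below them, while the values of their + partners overlap.

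In log2(IP/Sup), uc.371- was at -0.20, -1.30 and -1.26 in control, -1.22, -1.23 and -0.85 in model, and -0.44, -0.23 and -0.17 with BHD. BHD arrays lay above all model arrays, and control replicate 1 lay among the BHD arrays. The difference of 0.82 (SE 0.27, limma adjusted p = 0.433) was 0.70 within slide 2, where it missed a threshold. It came with a lower Sup signal, 9.89, 9.67 and 9.45 in model against 9.15, 8.45 and 7.81 with BHD, a difference of -1.20 (SE 0.36, limma adjusted p = 0.602) that was -0.76 within slide 2. The log2(IP/Sup) of uc.477+ was -0.19, 0.20 and 0.29 in model and -0.59, -0.61 and -0.30 with BHD, lower by 0.60 (SE 0.24, limma adjusted p = 0.441) and by 0.85 within slide 2. It missed a threshold without model replicate 2 or 3 or BHD replicate 1 or 2 (-0.51 to -0.56).

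In Sup, uc.310- was at 12.47, 12.38 and 12.44 in model and 12.34, 11.43 and 9.79 with BHD. The difference of -1.25 (SE 0.53, limma adjusted p = 0.621) rested on BHD replicate 3, since without it the value was -0.55, and it was -0.53 within slide 2. It missed a threshold in 13 of 19 alternatives, among them each array left out but BHD replicate 1. Its IP signal had the same order, 12.35, 11.56 and 9.85 with BHD. Sup of uc.419+ was 9.39, 9.14 and 9.25 in model and 9.10, 8.32 and 7.85 with BHD, lower by 0.84 (SE 0.31, limma adjusted p = 0.602), by 0.49 within slide 2 and by 0.55 without BHD replicate 3, and missed a threshold in 7 of 19 alternatives, among them model replicates 1 and 3 and BHD replicate 2 left out. Further ratios with overlapping groups passed and were named after their values were seen, uc.419+ at 0.73 (SE 0.26) and uc.255- at 0.63 (SE 0.26), with limma adjusted p of 0.433 and 0.454. Each missed a threshold in 7 of 19 alternatives. The first was 0.39 within slide 2 and missed one without model replicate 1 or BHD replicate 2 or 3 (0.56 to 0.64), and the second was 1.02 within slide 2 and missed one without control replicate 2, model replicate 2 or 3 or BHD replicate 1 or 2 (0.47 to 0.63).

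The strand difference between BHD and model passed both thresholds in IP for 6 of 138 member regions, where 2.1% of 477 regions did. These 477 include the members, and the other regions have a strand that was not detected by the rule. The median absolute difference between BHD and model was 0.157 for members and 0.072 over all 477. The count was 14 without model replicate 1 (3.84% of all regions), 11 without BHD replicate 1 (3.98%) and 3 without model replicate 2 (1.06%). It was 1.15 (SE 0.39) for uc.456, 0.95 (SE 0.34) for uc.360, 0.78 (SE 0.22) for uc.362 and 0.66 (SE 0.25) for uc.36, and -1.10 (SE 0.33) for uc.452 and -0.67 (SE 0.18) for uc.77, each with a limma adjusted p of 0.354. Groups overlapped in uc.36, which was named after its values were seen. In each of these 6 regions the - probe differed more than the + probe, and the differences of the + probes ran from -0.06 to 0.16. Within slide 2 the values were 0.75, 0.60, 0.53, 0.61, -1.11 and -0.47 in the same order, and the strand difference of uc.452 passed in all 17 alternatives tried. Without BHD replicate 3 those of uc.360, uc.362, uc.36 and uc.77 were 0.50, 0.56, 0.48 and -0.47 and missed a threshold, while that of uc.456 was 0.62 and passed. That of uc.456 missed a threshold without model replicate 3 (1.03), that of uc.360 without model replicate 2 or 3 (0.87 and 0.92), that of uc.36 without model replicate 2 or BHD replicate 1 (0.46 and 0.65), and that of uc.77 without model replicate 2 (-0.55). Several + partners were dim, with uc.362+ above background in IP on 3 arrays and in Sup on 3, and the offset shrinks the changes of dim probes.

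In log2(IP/Sup) the strand difference passed for 3 of 138 regions against 1.05% of 477, and in Sup for 1 against 1.47%. Counts in log2(IP/Sup) were 9 without model replicate 1 (2.35%) and 7 without BHD replicate 3 (1.68%). In Sup they were 8 without BHD replicate 1 (3.56%), 2 without model replicate 2 (0.846%) or 3 (1.06%) and 0 without BHD replicate 3 (0.629%). In uc.186 it was -0.71 (SE 0.25, limma adjusted p = 0.536), with uc.186- at 0.17, -0.18 and -0.93 in model and 0.58, 0.23 and 0.20 with BHD. It was -0.91 within slide 2, -0.40 without model replicate 3 and -0.65 without BHD replicate 1, and in both of the last it missed a threshold. The same model arrays enter the difference of uc.186 against control given above. In Sup it was 1.07 (SE 0.37, limma adjusted p = 0.788) for uc.371, whose + probe was above background in Sup on 3 arrays, 0.65 within slide 2 and 0.76 without BHD replicate 3, and it missed a threshold there and without model replicate 1 (0.96) or BHD replicate 2 (1.04). Strand differences of uc.50 at 0.68 (SE 0.21) and of uc.452 at -0.60 (SE 0.26) passed in log2(IP/Sup) with overlapping groups and were named after their values were seen. That of uc.50 was 0.42 without model replicate 2 and 0.15 with processed signals, each short of a threshold, and uc.50+ was above background in Sup on 1 array. That of uc.452 missed a threshold in 11 of 17 alternatives, with -0.33 without model replicate 3, -0.91 without model replicate 1 and a missed threshold without control replicate 3, model replicate 2 or any BHD array. No member passed after adjustment in limma, where 0% of regions did in log2(IP/Sup), 0.21% in IP and 0.21% in Sup. At an unadjusted p under 0.05 lay 22 members in log2(IP/Sup) (7.55% of all regions), 27 in IP (12.4%) and 7 in Sup (5.03%), and the regions beyond the members in this fit are those with a strand that was not detected by the rule.

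With 3 rats a group the number of arrays limits the precision of every value, and an exact permutation test of 3 against 3 could not go below a two-sided p of 0.1.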

How the data were processed

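Cortex of 9 rats was measured on 2-colour arrays, 1 per rat, grouped by the labels. Spot and background intensity values, not normalized, are those the authors deposited from their scanner (Agilent Feature Extraction 11.0.1.1), with flags for outliers and for signal above background. A series table of log2 signals of 32860 probes, also deposited, equals the log2 processed intensity minus a constant per column (largest deviation 4.93e-09) and served as an alternative. The methods name GeneSpring normalization.

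Median intensities were corrected with normexp (offset 50), normalized by loess within arrays, without control and outlier spots, and by Aquantile between arrays (R 4.3.3, limma 3.58.1). Each uc. probe has 1 spot, and an outlier spot gave no value, so that 130 of the 140 pairs had values on all 9 arrays. Probes entered a fit when well above background on at least 3 of its arrays, with at least 2 values per group. Model against control was fitted on 6 arrays and BHD against model on 9, and p-values were adjusted over all probes or, for strand differences, over all regions with both probes. The fits were run on simulated data with independent noise and no slide or replicate effect, so these runs do not cover such effects.

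Members, lists and the rule for named regions were chosen with earlier results of these data known. The rule named uc.440 and uc.77, probes that passed both thresholds without overlap, strand differences that passed, the extremes and the smallest strand difference, and pairs at the edge of detection. Deviations of same-numbered control and model arrays had r of 0.436, 0.138 and 0.323, and the replicate number was also fitted as a block. Differently numbered arrays were not compared, and neither labels nor methods say what a number shares. Other alternatives changed the background correction, centring, filter, outlier spots, slide block, arrays in the fit and variance moderation, or left out 1 array.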

Additional observations from a re-analysis of the deposited data

How the results depend on the processing

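The numbers of member probes and regions that passed both thresholds were small and moved with most settings, and for no setting was the cause tested. In model against control, processed signals in place of median signals with normexp gave 14 member probes in log2(IP/Sup), 8 in IP and 10 in Sup, and 12, 5 and 10 strand differences. The share of all probes that passed with them was 5.08%, 4.42% and 5.54%, and of all regions 8%, 5.05% and 5.26%. The deposited table gave 45 (all lower), 10 and 26 (all higher) probes and 13, 7 and 7 strand differences, beside 14.5%, 4.84% and 11.5% of all probes, and it moved the median of all probes by -0.29 in log2(IP/Sup) and 0.23 in Sup. Median centring gave 0 probes in IP (1.32% of all probes), 0 in Sup (0.815%), and 0, 2 and 0 strand differences (0%, 0.632% and 0% of all regions). The slide block gave 0 probes in log2(IP/Sup) (0.231% of all probes), 2 in IP (0.926%) and 2 strand differences in IP (0.842% of all regions). All 9 arrays in 1 fit gave 2 probes in log2(IP/Sup) (0.86% of all probes) and 1 in Sup (0.981%). Without variance moderation 0 probes passed in log2(IP/Sup) (0.133%) and in Sup (0.559%). The same held for strand differences, beside 0% and 0.211% of all regions. Leaving out 1 array gave 0 (control replicate 1) to 13 (model replicate 1), 0 to 5 and 0 to 5 probes, and 0 to 11, 0 to 2 and 0 to 5 strand differences.

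In BHD against model, processed signals gave 26 (15 higher, 11 lower), 38 (12 and 26) and 31 (6 and 25) probes and 14, 20 and 5 strand differences, beside 10.4%, 13.3% and 8.42% of all probes and 9.85%, 12.4% and 6.71% of all regions. The deposited table gave 26 (16 and 10), 37 (8 and 29) and 35 (5 and 30) probes and 12, 27 and 6 strand differences, beside 8.72%, 12.3% and 9.76% of all probes, and it moved the median of all probes by -0.19 in IP and in Sup. Its strand differences were fitted on 135 regions, all of them members, so it gives no wider share for these. Median centring gave 1 probe in log2(IP/Sup) (1.26% of all probes), 1 in Sup (2.06%) and 11 strand differences in IP (3.35% of all regions). Keeping outlier spots gave 10 probes in IP (5.12% of all probes). The slide block gave 19 probes in log2(IP/Sup) (17 higher, 2 lower, beside 7.61% of all probes) and 1 in Sup (1.43%). It gave 15 strand differences in log2(IP/Sup) (3.77% of all regions). Without variance moderation these 3 counts were 1 (1.32%), 1 (1.77%) and 1 (0.419%). Leaving out 1 array gave 2 (BHD replicate 2) to 13 (model replicate 1), 4 to 13 and 1 to 10 probes, and 2 to 9, 3 to 14 and 0 to 8 strand differences. Same-numbered model and BHD arrays correlated by 0.596, 0.0327 and 0.248 in their deviations, and the main fit did not pair them. Differently numbered arrays were not compared, here or for control and model, so pairing by number was not tested. With the number as a replicate block 8 probes (4% of all probes) and 6 strand differences (1.68% of all regions) passed in log2(IP/Sup). In model against control the replicate block gave 5, 2 and 1 probes and 3 strand differences in log2(IP/Sup), and it changed no other call there than those given with the results.

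Of 760 values for named regions under an alternative, 575 kept direction and side of the threshold, 146 lost the call, 15 gained one and 24 turned direction. Those that turned were all of uc.77 and were not called. For uc.77+ in IP, BHD against model, processed signals gave 0.021, kept outliers 0.027 and the slide block 0.052, and leaving out an array -0.14 to 0.061. In Sup, model against control, uc.77+ was at 0.13 with the slide block and 0.23 in the deposited table, and -0.20 to 0.030 without an array, and in log2(IP/Sup) at 0.061 with median centring and -0.16 to 0.11 without an array. For uc.77- in Sup the slide block gave -0.30 in model against control and -0.26 in BHD against model, where leaving out an array gave -0.076 to 0.33. The strand difference of uc.77 in BHD against model was 0.075 in Sup with the slide block, and in log2(IP/Sup) 0.52 with processed signals, 0.52 in the deposited table and -0.35 to 0.27 without an array. In model against control the slide block gave it 0.44 in Sup and -0.042 in log2(IP/Sup).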
